A study of Mus musculus with 7 samples.

Results

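Aquaporins are small membrane proteins that let water cross the cell membrane along an osmotic gradient, and the aquaglyceroporins among them also pass glycerol. The 7 genes described here, Aqp1, Aqp3, Aqp4, Aqp5, Aqp7, Aqp8 and Aqp9, were selected on the measured differences between the groups of this study, as a family in which Aqp3 was already known to differ. They are 7 of 12393 genes measured, and are read by all 12 probe sets annotated to them among 22626 tested. A probe set is a group of short array sequences meant to read 1 transcript or several related ones. Because the family was chosen with results of this contrast known, the differences of its members are given as a description, with no p-value. Aqp3 had 3 probe sets, Aqp4, Aqp7 and Aqp9 had 2 each, and Aqp1, Aqp5 and Aqp8 had 1 each, and 0 of the 12 carried a further gene symbol.

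In textbook physiology, Aqp1, Aqp4 and Aqp5 are water-selective channels. Aqp1 is the channel of red blood cells, capillaries and the choroid plexus, Aqp4 that of astrocyte endfeet in the brain, and Aqp5 that of salivary, sweat and airway glands. Aqp3, Aqp7 and Aqp9 are aquaglyceroporins, known from skin and kidney epithelium, from fat and from liver respectively, and Aqp3 and Aqp8 are also known to pass hydrogen peroxide. Neurons are not known as a main site of any of these channels.

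RNA came from MN9D cells, a mouse dopaminergic neuroblastoma hybrid line, and was hybridised to mouse expression arrays from Affymetrix. Of the 7 arrays, 3 were from cells expressing an empty vector and 4 from cells made to overexpress the alpha and beta chains of mouse hemoglobin, here called globin-labelled. The promoter that drives the globins, and whether either cell population was 1 clone, are not stated in the labels. Nor do the labels say that replicates were separate cultures, so every error and p-value below measures how far these arrays spread, and that spread may be technical. A further control hybridisation, which the submitters set aside after quality assessment, was not analysed here. Values are RMA expression values on the log2 scale, and differences are globin-labelled minus empty vector with limma's standard error (n = 4 and n = 3).

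On the array labels, the alpha-globin probe set 1428361_x_at (Hba-a2 and Hba-a1) read 8.57 to 8.77 on the empty vector arrays and 14.49 to 14.57 on the globin-labelled arrays. The probe set shared by the adult beta-globin genes, 1417184_s_at, read 8.73 to 8.84 and 8.84 to 9.06, a difference of 0.12 ± 0.06 that limma did not call. Of the Hbb-b2 probe sets, 1427865_at read 6.11 to 6.44 and 6.54 to 6.67, and rose by 0.34 ± 0.07 (limma adjusted p = 0.00558). The other, 1427866_x_at, read 4.42 to 4.56 and 4.32 to 4.59, and was not called (-0.05 ± 0.07). Whether any of these beta-globin probe sets lies within the introduced sequence is not stated, so they cannot check the beta part of the label. The dopaminergic enzyme gene Th stood at the 87.8th percentile of empty vector arrays, whereas the dopamine transporter gene Slc6a3 stood at the 19.3rd and the transcription factor gene Pitx3 at the 29.8th. The 6 astrocyte markers, of the cell type best known for Aqp4, lay between the 9.25th and the 35.8th percentile, and 0 of the 6 were called changed by limma, with 1 at an unadjusted p under 0.05, where 40.7% of all genes and 11.9% of probe sets with a mean level at or below 6.84 were called.

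Aqp3 was the only member whose probe sets stood above the array median in any group. The brightest, 1450460_at, read 10.55, 10.55 and 10.33 on empty vector arrays 1 to 3 and 7.52, 7.49, 7.64 and 7.80 on globin-labelled arrays 1 to 4. All 4 globin-labelled arrays lay below all 3 empty vector arrays, with a gap of 2.53 between the groups. The means were 10.48 ± 0.13 (SD, n = 3) and 7.61 ± 0.14 (SD, n = 4), a difference of -2.86 ± 0.08, which is 7.28-fold lower signal in the globin-labelled cells. In bulk RNA, fewer cells with the transcript and less transcript per cell cannot be told apart.

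The other Aqp3 probe sets gave the same direction with other sizes. Probe set 1422007_at read 9.65, 9.53 and 9.53 on the empty vector arrays and 7.74, 7.59, 7.52 and 7.53 on the globin-labelled arrays, a difference of -1.98 ± 0.06 or 3.93-fold. Probe set 1422008_a_at read 9.34, 9.34 and 9.23 against 5.49, 5.39, 5.51 and 5.42, a difference of -3.85 ± 0.05 or 14.4-fold. The groups did not overlap on either, and the gaps were 1.79 and 3.72. All 3 probe sets were annotated to the same transcript record, so they are repeated readings of 1 gene and not independent evidence. Whether they read the same forms of its transcript was not tested.

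The size of the Aqp3 difference depended on the probe set, from 3.93-fold to 14.4-fold. By percentile of all probe sets on the array, the 3 went from the 71.3rd to the 34.5th (1450460_at), from the 58.1st to the 34.2nd (1422007_at) and from the 54.5th to the 10.3rd (1422008_a_at). In the globin-labelled arrays the last of these lay beside the arrays' 10th percentile of 5.36 to 5.45. Detection calls were not analysed here, so whether that signal was above background is not known. Ordered by difference from the most negative among 22626 probe sets, the Aqp3 probe sets held ranks 1, 3 and 9. That place is what brought the family to attention and is not a finding about it.

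**Figure D1:**
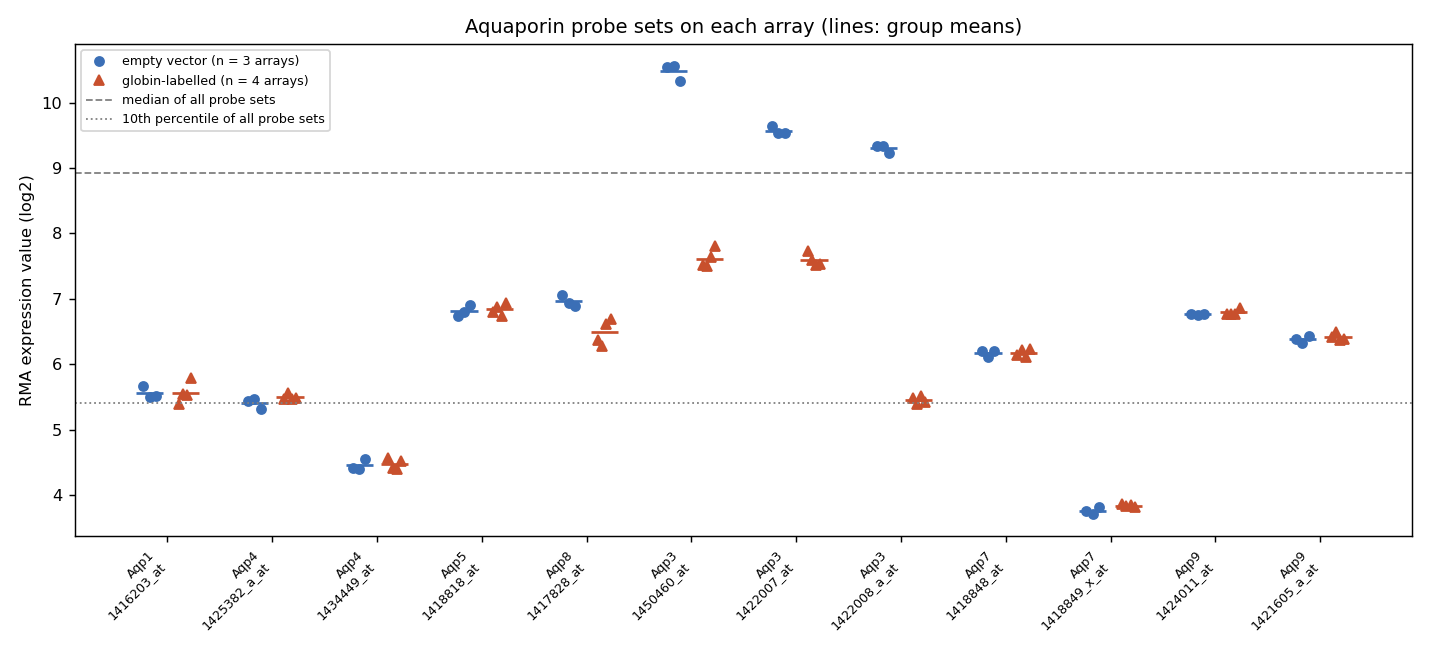
RMA expression value (log2) of each of the 12 aquaporin probe sets on each array, with empty vector arrays as circles, globin-labelled arrays as triangles and group means as short lines. The 3 Aqp3 probe sets lie above the median of all probe sets in the empty vector arrays and below it in the globin-labelled arrays, while every other probe set lies near or below 7 in both groups.

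Aqp8, a channel of gut, liver and testis that is also found in mitochondria, was the other member with lower values in the globin-labelled cells. Its probe set, 1417828_at, read 7.06, 6.94 and 6.89 on the empty vector arrays and 6.38, 6.27, 6.62 and 6.69 on the globin-labelled arrays. The groups did not overlap, with a gap of 0.20, and the globin-labelled arrays spread more widely (SD 0.20, n = 4) than the empty vector arrays (SD 0.09, n = 3). The means of 6.96 and 6.49 differed by -0.47 ± 0.10, or 1.39-fold, rank 1041 from the most negative. Its level went from the 26.9th to the 20.8th percentile of the arrays, so this is a difference of dim signal.

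The 250 bases before the start sites of Aqp3 and Aqp8, the members with lower values, are shown because these are the members that differed in the same direction. They are RefSeq sequence of GRCm38.p6, 5′ to 3′ on each gene's strand, from chr4:41098184-41098433 (minus strand) and chr7:123462044-123462293 (plus strand). Capitals mark matches on either strand to the TATA box (TATAAA), the CCAAT box (CCAAT), the GC box (GGGCGG), the core of the site of the tonicity factor Nfat5 (TGGAAA) and the E-box (CANNTG). No match overlapped another in these stretches.
Aqp3: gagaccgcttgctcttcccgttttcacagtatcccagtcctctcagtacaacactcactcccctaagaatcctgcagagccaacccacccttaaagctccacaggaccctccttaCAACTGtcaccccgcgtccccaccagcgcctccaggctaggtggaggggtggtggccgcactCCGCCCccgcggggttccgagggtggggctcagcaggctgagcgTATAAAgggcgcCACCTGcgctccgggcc
Aqp8: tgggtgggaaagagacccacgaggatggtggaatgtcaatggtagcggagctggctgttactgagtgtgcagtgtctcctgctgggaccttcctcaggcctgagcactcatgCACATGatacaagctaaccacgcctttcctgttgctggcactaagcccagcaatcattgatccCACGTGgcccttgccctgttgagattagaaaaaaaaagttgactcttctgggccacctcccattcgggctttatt
The Aqp3 stretch held the TATA box with its first base 29 bases before the start, the GC box (on the other strand) at 73 bases, and an E-box at 17 and at 135 bases. The Aqp8 stretch held only E-boxes, at 75 and at 138 bases. Over 32841 such stretches of RefSeq genes, 12.4% held a TATA box, 32.7% a GC box, 33.9% a CCAAT box, 18.6% the Nfat5 core and 66.2% an E-box. The Nfat5 core was in neither stretch, and was found once each before 1 of the listed starts of Aqp7 and of Aqp9. The Aqp3 stretch had 64.0% G and C with 14 CpG sites, the Aqp8 stretch 52.4% with 5, and the median of all stretches was 52.4% with 6. No motif of this search was held by Aqp3 and Aqp8 alike except the E-box, and a match is a run of letters and not a bound site.

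The remaining 5 genes had no called probe set, and their 8 probe sets lay at or below the 25.1st percentile on the empty vector arrays and the 24.9th on the globin-labelled arrays. Their differences ran from 0.00 to 0.09, with 95% confidence intervals that together reached from -0.19 to 0.20. All 8 differences were above 0 in the main fit, where 52.4% of all probe sets were, dim and bright together. These signs depended on the scaling. After a second quantile normalization the differences of Aqp1, Aqp5, Aqp7 (1418848_at) and Aqp9 (1424011_at) lay below 0. The 8 probe sets also read only 5 genes, so their shared sign is not read as a rise.

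Among the water channels, the Aqp1 probe set read 5.67, 5.50 and 5.52 on the empty vector arrays and 5.39, 5.54, 5.54 and 5.80 on the globin-labelled arrays, which include both the lowest and the highest of the 7 values. Its difference was 0.00 ± 0.09. Aqp5 read 6.74, 6.80 and 6.91 against 6.80, 6.88, 6.74 and 6.93, a difference of 0.02 ± 0.06 between overlapping groups. Aqp4 stood at the 3.23rd percentile on its probe set 1434449_at, with a difference of 0.02 ± 0.06. Its other probe set, 1425382_a_at, read 5.44, 5.47 and 5.32 against 5.47, 5.56, 5.47 and 5.49, with a difference of 0.09 ± 0.05 and groups that met at 5.47.

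Of the other aquaglyceroporins, Aqp7 read 6.20, 6.11 and 6.20 against 6.14, 6.22, 6.11 and 6.23 on 1418848_at, and the groups overlapped (0.01 ± 0.05). On 1418849_x_at, a probe set whose suffix marks oligonucleotides that may also bind other transcripts, it stood at the 0.113th percentile. There every globin-labelled value was higher than every empty vector value, with a gap of 0.0041 (0.08 ± 0.04). The Aqp9 probe sets read 6.75 to 6.78 against 6.77 to 6.87 (1424011_at, 0.03 ± 0.04) and 6.32 to 6.43 against 6.37 to 6.49 (1421605_a_at, 0.04 ± 0.05), with overlap on both. So Aqp3 was the aquaglyceroporin with signal well into the range of the array, and Aqp7 and Aqp9 stood at or below the 24.4th percentile in both groups. Whether Aqp3 differed from Aqp7 and Aqp9 in its change was not tested, since the family was chosen for Aqp3.

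By limma's adjusted p under 0.05 over all probe sets, 4 of the 12 aquaporin probe sets were called, all lower, where 39.5% of all probe sets were called, 18.3% higher and 21.2% lower. The 4 were the Aqp3 and Aqp8 probe sets. The groups did not overlap on 5 of the 12, these 4 (lower) and 1418849_x_at of Aqp7, where 43.5% of all probe sets did not overlap and 23% did so with lower values. The median difference of the 12 was 0.01, and that of all probe sets was 0.01. Among the 5657 probe sets with a mean level at or below 6.84, where 9 of the 12 aquaporin probe sets lay, 11.9% were called. The call on these members is read no further, since the contrast chose them.

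Exactly equal values on different arrays were common among the dim members. Of the 12 probe sets, 7 had the same deposited value on at least 2 arrays, as 36.3% of all probe sets did and 67.3% of those with a mean level at or below 6.84. The 7 include 1 brighter probe set, 1422008_a_at of Aqp3, with 9.34 on empty vector arrays 1 and 2. Such ties are thus not particular to the aquaporins. For 1424011_at of Aqp9 the value 6.77 stood on 1 empty vector array and 3 globin-labelled arrays. How such ties arose, and what they do to the standard errors of these members, was not tested.

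**Figure D2:**
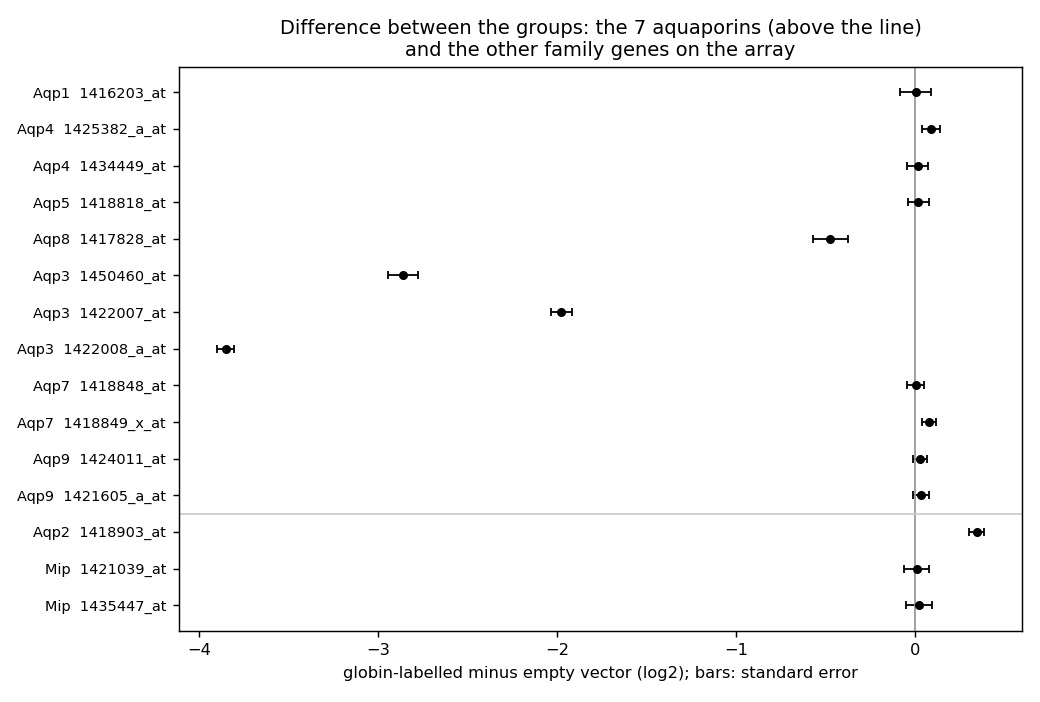
Difference of RMA values, globin-labelled minus empty vector (log2), with limma's standard error, for the 12 probe sets of the 7 aquaporins and the 3 probe sets of other family genes. The Aqp3 probe sets lie at -2.86, -1.98 and -3.85 and Aqp8 at -0.47, Aqp2 lies at 0.35, and the rest lie between 0.00 and 0.09.

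Of the family genes outside the chosen members, Aqp2 and Mip were measured. Aqp2, the vasopressin-regulated water channel of the kidney collecting duct, read 8.10, 8.07 and 8.08 on the empty vector arrays and 8.36, 8.44, 8.49 and 8.43 on the globin-labelled arrays. It rose by 0.35 ± 0.04, or 1.27-fold, without overlap (limma adjusted p = 1.83e-04). Its single probe set stood at the 40.1st percentile of the empty vector arrays and the 44.1st of the globin-labelled arrays. Mip, the lens fibre channel, did not pass on either probe set, with 0.01 ± 0.07 and 0.02 ± 0.07. Aqp6, Aqp11 and Aqp12 were not analysed here.

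The genes next to Aqp3 on chromosome 4 were lower in the globin-labelled cells, by much less than Aqp3. In the order of RefSeq genes of GRCm38.p6, the measured genes on one side were Aqp7, Nfx1, Chmp5 and Bag1 and on the other Nol6, Ube2r2, Ubap2 and Dcaf12. Of these 8 neighbours 7 were called lower, where 20.1% of all genes were, dim and bright together, and Aqp7 was not called. The 7 lay between the 64.5th (Dcaf12) and the 95.2nd percentile (Chmp5), and the share among genes of like level was not tested. Ube2r2, a ubiquitin-conjugating enzyme, fell from 11.85 to 11.48, by 0.37 ± 0.04 (limma adjusted p = 1.31e-04). Ubap2 fell by 0.34 ± 0.04, Chmp5, a subunit of the membrane-remodelling ESCRT machinery, fell by 0.31 ± 0.05, and Dcaf12 fell by 0.27 ± 0.04. Nfx1, a transcription factor, fell by 0.29 ± 0.05 on its brightest probe set, while 1 of its other 2 probe sets was called higher.

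The neighbours nearest the threshold were lost as calls under several alternatives while their differences stayed below 0. Nol6, a nucleolar protein, fell by 0.17 ± 0.06, ran from -0.21 to -0.12 over 13 alternatives and lost its call in 8 of them, among them a second quantile normalization and the fits without empty vector array 1 or 3 or globin-labelled array 1, 3 or 4. Bag1, a co-chaperone, fell by 0.18 ± 0.05, ran from -0.23 to -0.15 and lost its call in 3 of 13, without empty vector array 2 or 3 and with the replicate number as a block. Over all alternatives 5 to 7 of the 8 neighbours were called lower. Aqp7 lies between Nfx1 and Aqp3, stood at the 17.5th percentile and had a confidence interval of -0.10 to 0.11.

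The lower values reached beyond the nearest neighbours. The width of 25 measured genes on each side was chosen after the values were seen. Within it, 23 of 50 were called lower and 2 higher. Over all genes, dim and bright together, the shares were 20.1% and 20.6%. The median difference of the 50 was -0.12, against 0.02 over all genes. The 5 genes directly after Aqp3 were all called lower, with a median of -0.34, and of the 5 genes directly before it 3 were, with a median of -0.18. The next 5 genes before them, from B4galt1 to Ndufb6, held 0 called by limma, with 0 at an unadjusted p under 0.05. Apart from Aqp3, the lowest of the stretch was Ubap1 at -0.59, the fifth gene after it, and the 2 higher ones were Sit1 at 0.40 and Ccdc107 at 0.44. The difference of Aqp3 was -2.86 on the same scale, so its neighbours' differences were of another size. The part that the shared stretch had in the Aqp3 difference was not tested.

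**Figure D3:**
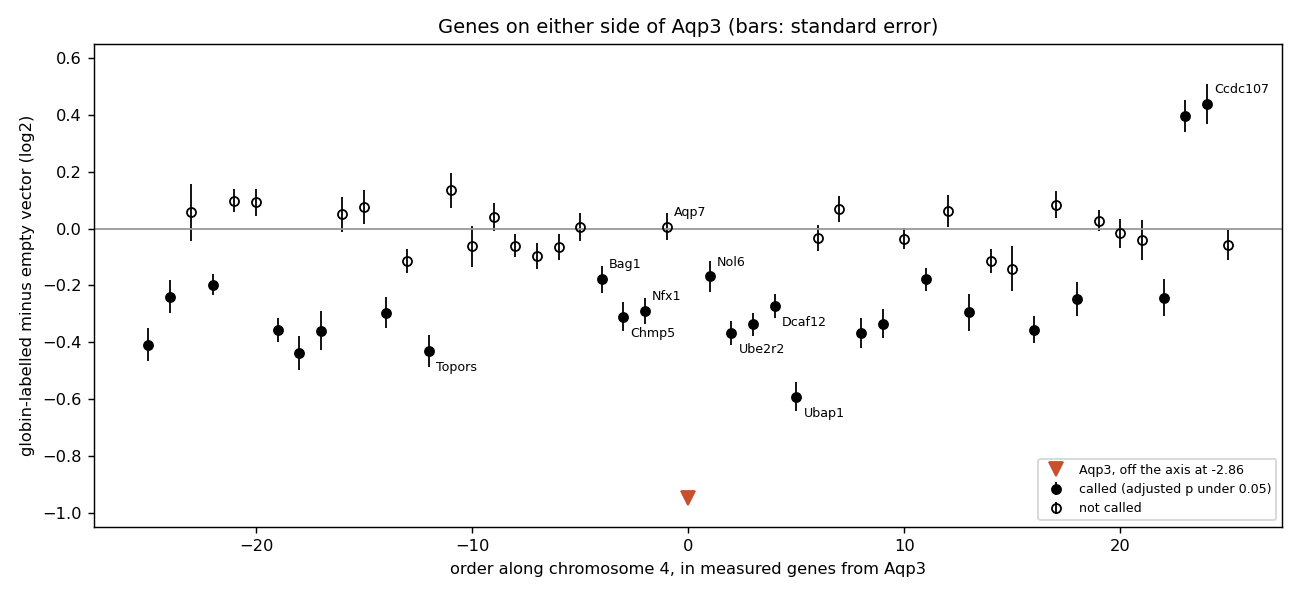
Difference of RMA values, globin-labelled minus empty vector (log2, bars standard error), for the 25 measured genes on each side of Aqp3 in order along chromosome 4, filled where called. Of the 50 genes, 23 are called lower and 2 higher, and Aqp3 itself is off the axis at -2.86.

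For the other members the nearest measured gene on each side was read. Those beside Aqp8, Lcmt1 and Kdm8, did not pass (-0.04 ± 0.05 and -0.05 ± 0.05). Aqp5 has Aqp2 on one side and Racgap1, a regulator of cell division, on the other, and both rose, by 0.35 ± 0.04 and 0.63 ± 0.06 (limma adjusted p = 1.83e-04 and 2.62e-05). Aqp5 itself, between them, differed by 0.02 ± 0.06. The genes beside Aqp1 (Inmt and Ghrhr) and beside Aqp4 (Kctd1 and Cdh2) did not pass on their brightest probe sets, and of those beside Aqp9, Adam10 fell by 0.18 ± 0.05 and Aldh1a2 did not pass (0.09 ± 0.07).

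The genes whose profile over the 7 arrays was most like that of the brightest Aqp3 probe set were Vegfc, Dtna, Slc4a10, Mt1, Peg10 and Lgals3. Likeness was the root mean square distance between profiles centred on the mean of the empty vector arrays, and it ran from 0.21 for Vegfc to 0.66 for Lgals3. Vegfc, a lymphatic growth factor, read 10.75, 10.91 and 10.89 against 8.04, 8.02, 8.24 and 7.80. Dtna, a scaffold of the dystrophin complex, read 7.53, 7.55 and 7.30 against 4.24, 4.46, 4.26 and 4.33 on the probe set matched. Pearson's r with Aqp3 was 0.987 to 0.999 for the 6, which describes 2 groups of arrays set far apart and carries no further weight. Only probe sets with differences near -2.86 could come close by this measure.

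The 5 lists below hold genes that work with or around aquaporins, counted with 1 probe set per gene, the brightest. The lists were chosen with earlier results of these data known. Their shares called and the p-values of their genes are therefore a description and not evidence about any list. Over all 12393 genes, 40.7% were called, 20.6% higher and 20.1% lower, with a median difference of 0.02. That share includes dim genes, and of probe sets with a mean level at or below 6.84 only 11.9% were called. The lists were not compared with genes of like level.

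Genes that handle glycerol, which aquaglyceroporins pass, and neutral lipid moved both ways. Of 20 measured genes 9 rose and 6 fell, or 75% called, with a median of 0.11. Plin2, the coat protein of lipid droplets, fell by 0.81 ± 0.04 from 12.80 to 11.99, and G0s2, an inhibitor of triglyceride breakdown, rose by 1.57 ± 0.08 from 6.97 to 8.53 (limma adjusted p = 8.20e-07 and 1.64e-06). Gpam, which joins the first fatty acid to glycerol 3-phosphate, rose by 0.56 ± 0.05. Gpd2, the mitochondrial glycerol 3-phosphate dehydrogenase, fell by 0.41 ± 0.04. Its cytosolic partner Gpd1 did not pass on its brightest probe set (0.15 ± 0.06), whereas 1 of its 4 probe sets was called higher.

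Genes of the response to tonicity and of organic osmolytes were divided. Of 16 measured genes 3 rose and 5 fell, or 50% called, with a median of -0.02. Sgk1, a kinase induced by cell shrinkage, fell by 0.86 ± 0.04, Gdpd1 fell by 0.69 ± 0.06, and Slc6a6, the taurine transporter, fell by 0.46 ± 0.04 (limma adjusted p = 9.56e-07, 1.80e-05 and 2.94e-05). Hspa1b, an inducible heat shock protein, rose by 1.43 ± 0.09 (limma adjusted p = 3.64e-06), and all 3 of its probe sets were called higher. Nfat5, the transcription factor of the tonicity response, did not pass on its brightest probe set (-0.15 ± 0.12), whereas 3 of its 4 probe sets were called lower.

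Channels and transporters that set cell volume were divided evenly, with 5 of 17 measured genes higher and 5 lower, or 58.8% called, and a median of 0.04. The list names 27 genes, and the rest were not analysed here. The 3 beta subunits of the sodium pump were measured, and its catalytic alpha subunits were not analysed here. Atp1b1 fell by 0.59 ± 0.06 and Atp1b3 fell by 0.36 ± 0.04, while Atp1b2 rose by 0.54 ± 0.07 (limma adjusted p = 7.68e-05, 1.14e-04 and 2.07e-04). Slc12a7, a potassium-chloride cotransporter, rose by 0.34 ± 0.05. Lrrc8a, the obligatory subunit of the volume-regulated anion channel, did not pass (0.13 ± 0.05), though it did in 5 of 13 alternatives.

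Proteins that hold aquaporins at membranes, most of them of the dystroglycan complex that anchors Aqp4 in astrocytes, were also divided. Of 11 measured genes 4 rose and 4 fell, or 72.7% called, with a median of 0.02. Dtna fell by 0.44 ± 0.07 on its brightest probe set, and 5 of its 6 probe sets were called lower. Utrn fell by 0.29 ± 0.05, Ezr, a linker of membrane to actin, fell by 0.18 ± 0.05, and Dtnb rose by 0.39 ± 0.07 (limma adjusted p = 0.00211, 0.0158 and 0.00183). Dag1, dystroglycan itself, rose by 0.13 ± 0.05 (limma adjusted p = 0.0441), a call lost in 8 of 13 alternatives. The count of 8 became 5 without empty vector array 2 and 4 without empty vector array 3.

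Genes that make or remove hydrogen peroxide, which Aqp3 and Aqp8 can pass, gave 5 higher and 3 lower of 19 measured, or 42.1% called, with a median of 0.07. Of the peroxidases of the endoplasmic reticulum, Gpx8 fell by 0.96 ± 0.07 and Prdx4 fell by 0.62 ± 0.07 (limma adjusted p = 6.81e-06 and 1.16e-04). Gpx7, also of the endoplasmic reticulum, did not pass (0.09 ± 0.08) and stood at the 21.9th percentile. Gpx4, which reduces lipid peroxides, and Sod2, the mitochondrial superoxide dismutase, rose by 0.50 ± 0.06 and 0.22 ± 0.05. Nox4, an oxidase that produces hydrogen peroxide, stood near the 9th percentile and did not pass (-0.04 ± 0.06). The count of 8 became 5 without empty vector array 1.

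**Figure D4:**
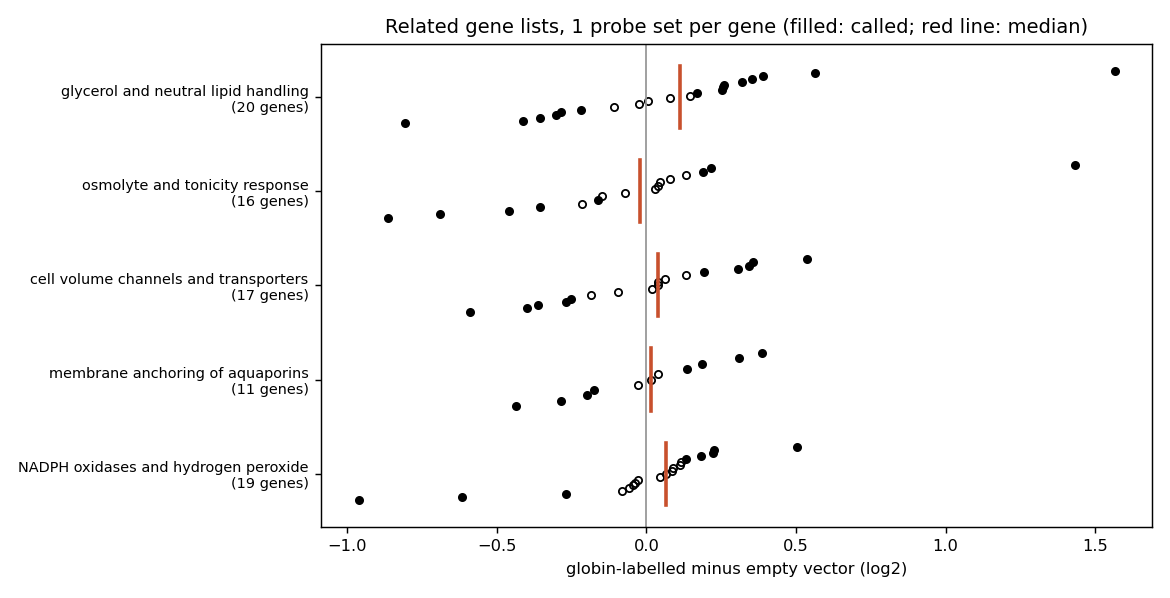
Difference of RMA values, globin-labelled minus empty vector (log2), for each measured gene of the 5 related lists, filled where called, with the list's median as a red line. Every list has called genes on both sides of 0, and the medians lie between -0.02 and 0.11.

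Markers of other cell types were counted in the same way. Of 5 dopaminergic markers, Th fell by 0.70 ± 0.05 and Ddc fell by 0.22 ± 0.05. Their summed level was 12.22 to 12.38 against 11.77 to 11.84, with Th the highest of the list. Slc6a3 (0.04 ± 0.07) and Pitx3 (0.06 ± 0.07) did not pass. Nr4a2 did not pass on its brightest probe set (-0.13 ± 0.09), whereas 1 of its 2 probe sets was called lower. Of 5 neuron markers 1 rose and 3 fell, with 13.80 to 13.96 against 13.64 to 13.79, and a median difference of -0.48. Stmn2 fell from 11.38 to 10.18, Tubb3 fell by 0.80 ± 0.06 and Map2 fell by 0.48 ± 0.11, Snap25 rose by 0.40 ± 0.05, and Gap43, the highest by mean over the 7 arrays, did not pass (-0.09 ± 0.06). The astrocyte sum was 9.39 to 9.42 against 9.34 to 9.44, and Gfap, the highest of that list, did not pass (-0.04 ± 0.06). Of 4 markers of ependyma and choroid plexus, the tissue best known for Aqp1, 1 was called, Folr1, which rose by 0.51 ± 0.06, with sums of 9.59 to 9.74 against 9.95 to 10.02. Of 4 endothelial markers Kdr fell by 0.27 ± 0.08, a call lost in 4 of 13 alternatives, with 8.70 to 8.75 against 8.52 to 8.72. Of 5 erythroid markers 1 was called, Slc4a1 at 0.29 ± 0.08 between overlapping groups. Epor, the highest of that list, did not pass (0.14 ± 0.05), though it did in 3 of 13 alternatives. The summed level of the list ran from 10.05 to 10.15 on the empty vector arrays and from 10.14 to 10.26 on the globin-labelled arrays. Of 3 adipocyte markers 0 were called by limma, and 0 had an unadjusted p under 0.05. They lay between the 4.20th and the 15.3rd percentile, with sums of 6.97 to 7.04 against 6.97 to 7.09, and Fabp4 was the highest (0.07 ± 0.06). Of 6 epithelial markers, 1 rose and 1 fell. Krt8, a keratin, rose by 2.77 ± 0.06 and Epcam, an adhesion molecule, fell by 0.46 ± 0.06, whereas Cdh1, epithelial cadherin, stood at the 3.06th percentile. Cldn3, the highest by mean over the 7 arrays, did not pass (0.11 ± 0.06). Nor did the keratins Krt18 (0.20 ± 0.08) and Krt19 (0.05 ± 0.08). The summed epithelial level was 10.42 to 10.52 against 11.17 to 11.27, and Krt8 carried this rise: without it the other 5 markers summed to 10.23 to 10.31 against 10.14 to 10.17. Of 4 leukocyte markers, Cd68, a lysosomal protein, fell by 1.25 ± 0.09, and Ptprc stood at the 2.69th percentile. The sums were 9.46 to 9.56 against 9.02 to 9.13. Laptm5, the highest of that list, did not pass on its brightest probe set (-0.18 ± 0.07), whereas 2 of its 3 probe sets were called lower. What part these markers have in the Aqp3 difference was not tested.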

How the data were processed

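RNA from 7 MN9D samples was labelled by 1-cycle amplification and hybridised, per the labels' protocols. The deposited values are on the log2 scale, and the submitters' processing notes name RMA. Its software is not given in the sources used here. The method makes the distributions of arrays alike, which hides a shift common to most transcripts. Scanner files were not used here, and precision is limited by there being 7 arrays.

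The table holds 22690 probe sets, from which 64 controls were left out. Of the rest, 20380 had 1 gene symbol, 691 several and 1555 none in the platform annotation. limma 3.58.1 in R 4.3.3 was fitted to the deposited log2 values of 22626 probe sets (lmFit, then eBayes, with the 2 groups as the design, two-sided p-values and Benjamini-Hochberg adjustment over all), and a probe set with an adjusted p under 0.05 was called changed. Confidence intervals are at 95%. On simulated data with known changes it recovered 60% of changes of 1.2-fold and 100% of changes of 2-fold in this comparison of 22626 probe sets. It also called 14 unchanged probe sets. The simulation changed few probe sets, where 39.5% were called in the data, so recovery of small changes there may differ. Python 3.11.15 made the counts and figures.

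The members and gene lists were chosen with earlier results of these data known. Named genes were all member probe sets, other aquaporins, the nearest 4 genes on each side of Aqp3 and the nearest gene on each side of the others, up to 4 called genes and the first measured gene of each list, the 6 genes most like Aqp3, and the brightest and the dopaminergic markers. Genes singled out beyond these (the wider stretch on chromosome 4 and markers beyond the rule) were chosen after their values were seen. Promoter sequences are from RefSeq, matched by symbol for the 6 members whose sequence may be shown. Alternatives were 2 other scalings, other settings of eBayes, a filter on dim probe sets, the replicate number as a block, each array left out and another rule for genes with several probe sets.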

Additional observations from a re-analysis of the deposited data

Results flagged for a closer look

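In the group of 4 globin-labelled arrays, 15 aquaporin family probe sets were looked at for an array that stands apart by Dixon's criterion. Chance meets it in about 1 of 20 groups without tied values, and the rate with ties is not known here. On Aqp4 probe set 1425382_a_at, array 2 read 5.56 where the next array read 5.49, and arrays 1 and 3 were tied. On Aqp9 probe set 1424011_at, array 4 read 6.87 where the other 3 arrays shared the value 6.77. With 3 arrays tied, any different value on the remaining array meets the criterion, so this flag carries no weight.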

How the results depend on the processing

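Over all probe sets 8931 were called, and 6337 with the replicate number as a block over replicates 1 to 3. Same-numbered arrays deviated from their group means in opposite directions (r = -0.36, -0.30 and -0.14), so the numbers gave no sign of pairing the arrays. Differently numbered arrays of the 2 groups gave r from -0.23 to 0.28, and pairing in another order was not tested. The replicate block left the 4 called aquaporin probe sets called. It left 3 of 8 calls in the list of membrane anchoring of aquaporins and 5 of 8 in that of NADPH oxidases and hydrogen peroxide. A further alternative, added after seeing the data, left out both empty vector array 1 and globin-labelled array 4, which stood apart on a principal component. There the counts were 4 and 5. Leaving out 1 array at a time gave 4 to 7 and 5 to 8 calls in these lists. The other 3 lists kept their counts within 1.5 times under the alternatives run, as did the count of called aquaporin probe sets. The difference of the brightest Aqp3 probe set ran from -2.94 to -2.82 and that of Aqp8 from -0.54 to -0.40, and both were called in each alternative that held them. Aqp8 was too dim for the filter on dim probe sets and has no value there. Depth does not apply to arrays, and dim signal limits what can be said of Aqp1, Aqp4, Aqp5, Aqp7, Aqp8 and Aqp9.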
